A study of Mus musculus with 12 samples.

Results

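The 35 genes described here encode factors of homologous recombination, of the Fanconi anaemia pathway and of the DNA damage checkpoint. They were chosen by name. Each was represented by the probe of that name whose mean level across the series' 12 arrays was highest. All 35 had a probe, among 34650 gene names on the array, and 11 of them had more than 1. A level below is the probe's processed intensity on the log2 scale, less the 75th percentile of its array, so that 0 is the 75th percentile of all probes, and levels of different probes are not compared.

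Homologous recombination copies an intact sister DNA molecule to mend a double-strand break: the MRE11-RAD50-NBN complex senses the break, nucleases trim it to single strands, and BRCA1, PALB2 and BRCA2 prepare the strands for the search for an intact copy. The Fanconi pathway unhooks crosslinks between the DNA strands, with a core complex that ubiquitinates FANCD2 and FANCI, and the kinases ATM and ATR signal damage to CHK2 and CHK1. Many of these genes are transcribed mainly in cells that replicate DNA, and hair follicle stem cells (HFSCs) divide rarely until the hair cycle or hair removal activates them.

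The series concerns ageing of the hair follicle, and gene expression was measured in sorted mouse skin cells with 1 one-colour Agilent array for each of 12 groups. HFSCs (high for CD34 and ITGA6, negative for SCA1) came from wild-type C57BL/6 mice aged 8 weeks ("young"), from wild-type C57BL/6 mice of at least 22 months ("aged"), from 12-week wild-type C57BL/6 mice given tamoxifen ("control") and from 12-week Col17a1 cKO mice given tamoxifen ("cKO"). COL17A1 is a collagen that anchors basal keratinocytes. The labels name the K14 promoter for the deletion and give no strain for the cKO mice. Tamoxifen was given at 2 mg on 5 days in both of the 12-week groups and in neither of the others. Each of the 4 kinds of mouse gave unplucked HFSCs and HFSCs taken 3 days after the hair was pulled out by hand. Young and aged mice also gave total epidermal cells and cells of the interfollicular epidermis (IFE; ITGA6 and SCA1 both high), 4 epidermal arrays in all. The labels do not say whether samples were separate animals or pools, so the p-values reflect no more than the scatter among these samples, and that scatter may be technical.

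Spots well above background made up 49.71% (unplucked HFSCs labelled cKO) to 64.97% per array. Slide 1 held the young and aged samples in separate rows, and each population had its own column there, so age and row, and population and column, cannot be told apart. Control and cKO samples lay on slide 2, where the column order of plucked and unplucked cells was the reverse of slide 1. The level of Col17a1 was 7.31 and 6.22 in control and 7.01 and 5.79 in cKO HFSCs, unplucked and plucked. It differed by -0.37 ± 0.39 (SE; limma, adjusted p = 0.922), and the sources used here do not say if the deletion covers its probe, so this gene did not check the cKO label. The HFSC gate was checked in the unplucked young and aged cells against total epidermis and IFE: 6 of 8 bulge stem cell markers were higher (Lhx2 by 6.42 ± 0.38, adjusted p = 0.00802). Itga6, a gene of the gate, was at 4.54 and 4.48 in HFSCs, below its 5.21 to 5.77 in epidermis (adjusted p = 0.0811), and Ly6a, which encodes SCA1, was 23.6-fold lower (-4.56 ± 0.40, adjusted p = 0.0118).

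Of the 35 genes, 18 were well above background on all 12 arrays and each of the others on at least 4. In unplucked HFSCs 23 to 27 of them were well above background, in plucked HFSCs 33 to 35, and in the epidermal arrays 26 to 32. The median level of the 35 was -2.32 in young, -2.12 in aged, -2.63 in control and -1.39 in cKO HFSCs. After plucking it was 0.18, -0.25, 0.24 and -0.02 in the same order. Total epidermis had -1.69 (young) and -1.27 (aged), and IFE -1.63 and -1.33. All 4 plucked medians thus lay above all 8 others.

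**Figure D1:**
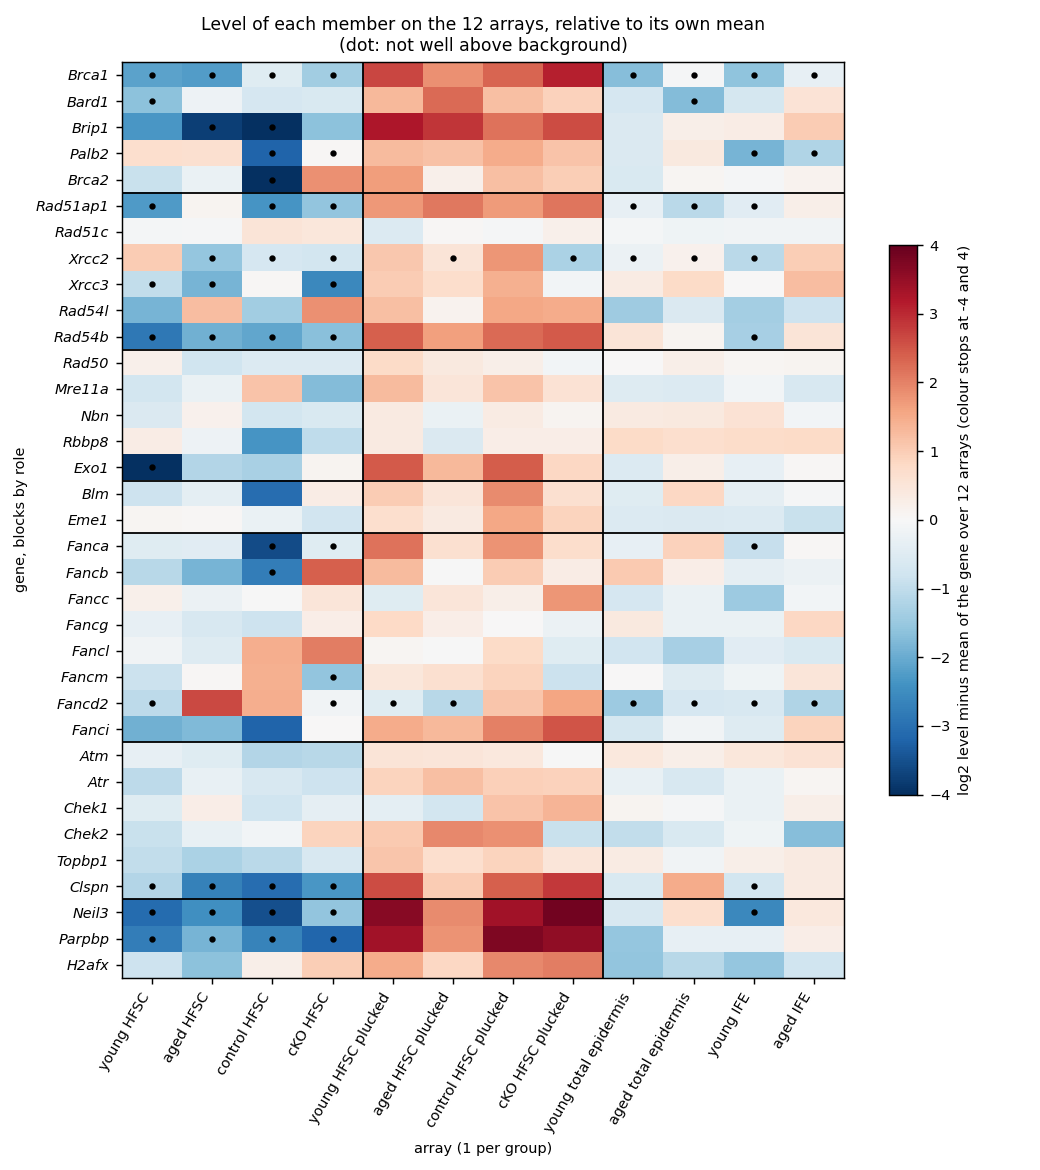
Level of each of the 35 genes (rows, in blocks by role) on the 12 arrays (columns, 1 per group), as the log2 level minus the gene's own mean, with a black dot where the probe was not well above background. The 4 plucked HFSC columns are red for most rows, and the unplucked HFSC columns hold most of the dots: 23 to 27 of 35 genes were well above background there against 33 to 35 after plucking.

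Because 6 of the genes rose together on plucking, the promoters of those found in the RefSeq promoter table (GRCm38.p6) are shown. Of the 35 genes, 27 were matched, with 29 windows, and Rad54b, Rad50, Nbn, Rbbp8, Exo1, Xrcc2, Fancd2 and H2afx were not. Each sequence runs 5′ to 3′ over the 250 bases before the gene's start, in lower case. Capitals mark the letters CCAAT or, for the same box on the other strand, ATTGG, and the letters TTTGAA (the CHR element, for cell cycle genes homology region). No E2F-like word (TTTCCCGC, TTTGGCGC, TTTCGCGC or TTTGCCGC on either strand) occurred in these 5.
Brip1 (chr11:86201194-86201443, minus strand): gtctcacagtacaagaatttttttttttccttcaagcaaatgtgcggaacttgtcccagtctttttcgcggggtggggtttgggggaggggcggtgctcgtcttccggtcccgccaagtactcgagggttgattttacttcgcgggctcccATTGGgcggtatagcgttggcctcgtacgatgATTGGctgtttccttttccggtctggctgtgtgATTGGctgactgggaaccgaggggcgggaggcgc
Clspn (chr4:126556730-126556979, plus strand): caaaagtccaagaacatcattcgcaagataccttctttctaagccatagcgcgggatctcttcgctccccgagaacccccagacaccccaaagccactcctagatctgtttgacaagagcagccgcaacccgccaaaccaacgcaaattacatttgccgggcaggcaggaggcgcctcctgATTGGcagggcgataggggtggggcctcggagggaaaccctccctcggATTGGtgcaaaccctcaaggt
Brca1 (chr11:101551956-101552205, minus strand): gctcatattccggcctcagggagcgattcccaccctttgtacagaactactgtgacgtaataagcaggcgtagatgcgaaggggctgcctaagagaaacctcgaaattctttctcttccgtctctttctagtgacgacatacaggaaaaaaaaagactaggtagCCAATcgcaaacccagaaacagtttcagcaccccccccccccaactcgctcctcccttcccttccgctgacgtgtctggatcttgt
Parpbp (chr10:88146942-88147191, minus strand): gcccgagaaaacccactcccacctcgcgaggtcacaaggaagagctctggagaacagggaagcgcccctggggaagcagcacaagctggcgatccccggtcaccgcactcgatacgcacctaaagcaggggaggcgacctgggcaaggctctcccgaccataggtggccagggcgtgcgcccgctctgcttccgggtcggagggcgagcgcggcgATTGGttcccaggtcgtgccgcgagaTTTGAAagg
Neil3 (chr8:53639066-53639315, minus strand): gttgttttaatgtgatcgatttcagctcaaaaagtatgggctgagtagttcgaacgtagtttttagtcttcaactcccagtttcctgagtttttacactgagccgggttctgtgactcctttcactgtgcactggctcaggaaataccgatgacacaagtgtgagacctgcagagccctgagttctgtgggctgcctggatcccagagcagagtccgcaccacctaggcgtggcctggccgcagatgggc

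Brip1 held 3 CCAAT boxes, Clspn 2, Brca1 and Parpbp 1 each, and Neil3 none. Parpbp also held TTTGAA, 9 to 4 bases before its start. Over the 27 genes, an E2F-like word stood in 5 (18.5%), against 2.16% of the 27025 genes of the promoter table. Those 5 were Bard1 (from -209 to -202 relative to the start), Brca2 (-168 to -161), Fancg (-52 to -45), Chek2 (-152 to -145) and Topbp1 (-129 to -122), and none of them passed the plucking test. The CCAAT box stood in 15 of 27 (55.6%, against 37.5% of all genes) and TTTGAA in 2 of 27 (7.41%, against 18.3%). No match in these genes overlapped a match of another motif. A match is a string of letters and not a shown site, and a window without one says only that these letters are not in it.

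Plucking was the condition with the clearest differences. Of the 35 genes, 6 rose in HFSCs 3 days after plucking and 0 fell, in a limma fit of mouse type and plucking over the 8 HFSC arrays (adjusted p under 0.05 over 25366 genes tested). Of all genes tested, 0.394% rose and 0.106% fell. The 6 were Neil3, Parpbp, Brip1, Clspn, Rad54b and Brca1. The difference was above 0 for 32 of the 35, with a median of 1.69 on the log2 scale against -0.06 for all genes tested, and 21 were higher in all 4 pairs and 0 lower in all 4, against 14% and 15.3% of all genes. The 4 plucked arrays all lay above the 4 unplucked arrays for 17 genes, against 6.28% of all genes, and all below for 0, against 4.45%. In bulk samples, more cells that express a gene and more RNA per cell cannot be told apart.

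Leaving out any pair, or using either slide alone, left 0 of the 35 genes past the threshold (smallest adjusted p between 0.0881 and 0.326), and also 0 of all genes tested. The 6 stayed above 0 in each of these fits. Without the unplucked control and cKO arrays, whose correlations with the other arrays were the lowest (medians 0.8877 and 0.8927), 0 of the 35 and 0 of all 24522 genes were called. A background correction by normexp with quantile scaling called 13 of the 35 (and 725 genes higher and 398 lower in all, against 100 and 27) and made the differences of the 6 smaller, from 1.23 (Brca1) to 3.52 (Brip1). Of the 6, 5 had no unplucked HFSC array well above background and so entered the test through their plucked arrays. With every gene tested, 2 of them, Brip1 and Rad54b, passed, among 18 higher and 4 lower genes in all.

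**Figure D2:**
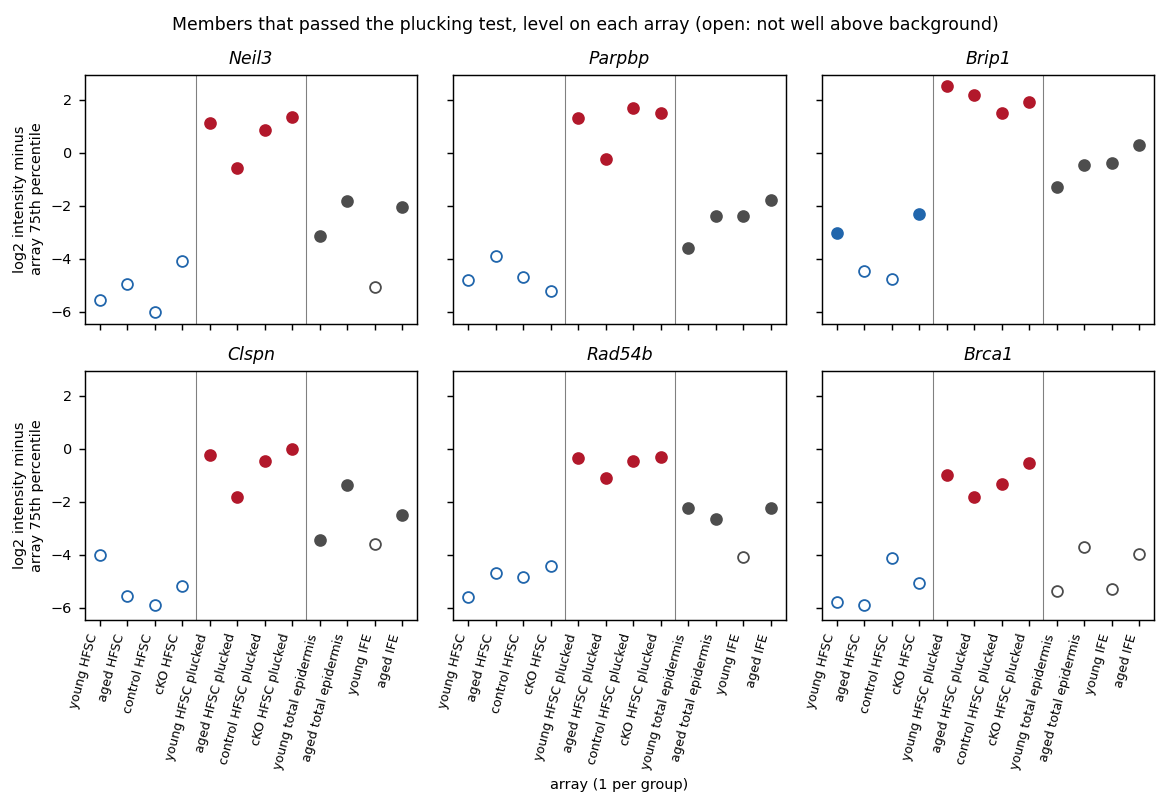
Level (log2 scale, relative to the 75th percentile of the array) of the 6 genes that passed the plucking test on each of the 12 arrays. Blue points are unplucked HFSCs, red points plucked HFSCs and grey points total epidermis and IFE, and open points were not well above background. In each panel the 4 red points lie above the 4 blue ones. The aged array is the lowest red point for 5 of the 6 genes, an order that was not counted among all genes.

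Brip1 encodes a helicase that binds BRCA1. Its level in unplucked HFSCs was -3.03 in young, -4.45 in aged, -4.78 in control and -2.32 in cKO mice, and after plucking it was 2.53, 2.17, 1.49 and 1.92. Every plucked array was thus above every unplucked one. The fitted difference was 5.68 ± 0.45 (SE, 4 pairs), or 51.1-fold, with an adjusted p of 0.0439 (limma), and 2 of the 4 unplucked arrays were well above background.

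Brca1, whose protein with BARD1 forms a ubiquitin ligase and starts repair by recombination, had levels of -5.79, -5.89, -4.13 and -5.05 in unplucked young, aged, control and cKO HFSCs, none of them well above background. After plucking they were -0.97, -1.83, -1.33 and -0.55, all well above background and all higher. The fit gave 4.04 ± 0.40 (adjusted p = 0.0448). As a bound, plucked cells were at least 5.55-fold higher. Such a bound sets the plucked mean against, on each dim array, the higher of the lowest signal well above background and the probe's own signal. Its probe is placed by the files at chr11:101359283-101363319 (mm9, minus strand).

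The other genes of this group did not pass. Bard1, the partner of BRCA1, was at -3.84, -2.42, -2.87 and -2.82 before and -0.91, 0.04, -1.01 and -1.30 after plucking, without overlap (2.19 ± 0.32, adjusted p = 0.0694). Palb2, which joins BRCA1 to BRCA2, differed by 1.73 ± 0.78 (adjusted p = 0.333). Its control pair differed by 4.69 and the others by 0.54 to 1.11. Brca2, which acts after BRCA1 and PALB2 in recombination, ranged from -0.82 in the cKO pair to 5.53 in the control pair (1.93 ± 1.07, adjusted p = 0.411). The unplucked control array, where both probes were not well above background (-6.35 for Palb2 and -6.32 for Brca2), was the lowest of their 12 arrays.

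Among the strand exchange factors, Rad54b rose. It encodes a DNA translocase of the RAD54 family. Unplucked levels were -5.61, -4.68, -4.83 and -4.41 in young, aged, control and cKO HFSCs, none well above background, and plucked levels were -0.36, -1.10, -0.47 and -0.29. The groups did not overlap, and the fit gave 4.33 ± 0.34 (adjusted p = 0.0439), with plucked cells at least 9.6-fold higher. A dimmer probe of the same gene differed by 2.71. Rad54l, its relative, was less regular: it was higher by 3.07 and 2.93 in the young and control pairs and differed by -1.07 and -0.36 in the aged and cKO pairs (1.14 ± 0.85, adjusted p = 0.525).

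Rad51ap1, a stimulator of strand exchange, came close to the threshold at 3.45 ± 0.43 (adjusted p = 0.0559), with no overlap between the groups. Xrcc3, a recombination factor, differed by 2.10 ± 0.30 (adjusted p = 0.0676) and was higher in all 4 pairs, by 1.35 to 2.56. Xrcc2, another recombination factor, was well above background on 4 of the 12 arrays and differed by 1.01 ± 0.60 (adjusted p = 0.437). The probe of Rad51c is assigned to an Ensembl transcript with no RefSeq symbol, so that it may not report this gene, and gave 8.62 to 9.69 on all 12 arrays, with a plucking difference of -0.29 ± 0.25 (adjusted p = 0.578).

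No gene of break sensing and resection passed. Rad50, Mre11a and Nbn, the 3 parts of the sensing complex, differed by 0.75 ± 0.25, 1.28 ± 0.47 and 0.56 ± 0.34 (adjusted p = 0.236, 0.257 and 0.451), and all 3 were well above background on all 12 arrays. Rbbp8, whose protein CtIP starts resection, differed by 0.90 ± 0.55 (adjusted p = 0.452). Exo1, an exonuclease that lengthens the resected strand, had the widest spread of these 5 genes: 6.54 in the young pair, 2.45 in the aged, 3.72 in the control and 0.74 in the cKO pair (3.36 ± 0.95, adjusted p = 0.179). Of the genes that take joined molecules apart, Blm, a helicase, differed by 2.00 ± 0.81 (adjusted p = 0.293) and Eme1, a nuclease subunit, by 1.10 ± 0.36 (adjusted p = 0.225). For both, plucked arrays did not overlap unplucked ones.

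The 8 Fanconi genes had the lowest median of the roles, 0.56, and 0 passed. Fanci, partner of FANCD2, stood apart at -2.32, -2.17, -3.58 and -0.37 before and 1.11, 0.91, 1.63 and 2.13 after plucking (3.55 ± 0.49, adjusted p = 0.0645). Its dimmer probe differed by 0.04, so the gene's 2 probes disagree. Fanca, of the core complex, differed by 2.58 ± 0.78 (adjusted p = 0.2) and by 1.04 on its other probe. Fancb, of the core complex, was higher in 3 pairs, by 1.85 to 3.76, and -2.10 in the cKO pair (1.47 ± 0.98, adjusted p = 0.483). Fancc, Fancg and Fancm, also core complex members, differed by 0.39, 0.60 and 0.52 (adjusted p = 0.631, 0.437 and 0.506). The dimmer probe of Fancc, well above background on 6 arrays, differed by -1.43, the opposite sign. Fancl, the ubiquitin ligase of the pathway, differed by -0.62 ± 0.56 (adjusted p = 0.605), and its other probe by 1.12. Fancd2, the ligase's substrate, was well above background on 4 of 12 arrays and differed by -0.45 ± 0.91 (adjusted p = 0.821).

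Among the checkpoint genes Clspn rose. It encodes claspin, the adaptor through which ATR activates CHK1. Its levels were -4, -5.55, -5.89 and -5.17 in unplucked young, aged, control and cKO HFSCs, none well above background, and -0.24, -1.83, -0.45 and -0.02 after plucking, without overlap. The difference was 4.51 ± 0.41 (adjusted p = 0.0448), and plucked cells were at least 9.44-fold higher. Atr, the kinase of stalled replication forks, was the most even member: its pairs differed by 1.95, 1.48, 1.58 and 1.77 (1.69 ± 0.23, adjusted p = 0.0645). Its other probe, well above background on 7 arrays, differed by -0.50. Topbp1, an activator of ATR, differed by 1.79 ± 0.28 (adjusted p = 0.0717) and Atm, the kinase of double-strand breaks, by 1.13 ± 0.25 (adjusted p = 0.127), both without overlap. The effector kinases varied between pairs: Chek1 from -1.01 (aged) to 1.94 (control), at 0.68 ± 0.57 (adjusted p = 0.572), and Chek2 from -1.78 (cKO) to 2.22 (aged), at 1.07 ± 0.75 (adjusted p = 0.505).

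Neil3 and Parpbp also rose. Neil3, a DNA glycosylase that also opens crosslinks, was at -5.56, -4.94, -6.02 and -4.07 in unplucked young, aged, control and cKO HFSCs, none well above background, and at 1.14, -0.59, 0.88 and 1.36 after plucking. All plucked arrays were higher than all unplucked ones. The difference was 5.85 ± 0.50 (adjusted p = 0.0448), at least 23.9-fold. Parpbp, which encodes a PCNA-binding protein that restrains recombination, was at -4.79, -3.90, -4.70 and -5.20 before, none well above background, and at 1.32, -0.25, 1.69 and 1.51 after plucking. Here too the groups did not overlap (5.71 ± 0.57, adjusted p = 0.0448, at least 28.9-fold). H2afx, the histone variant that is phosphorylated around breaks, was well above background on all 12 arrays and differed by 1.88 ± 0.33 (adjusted p = 0.0879), higher in all 4 pairs by 1.04 to 2.45. In all, 7 genes had an adjusted p between the threshold and 0.1.

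**Figure D3:**
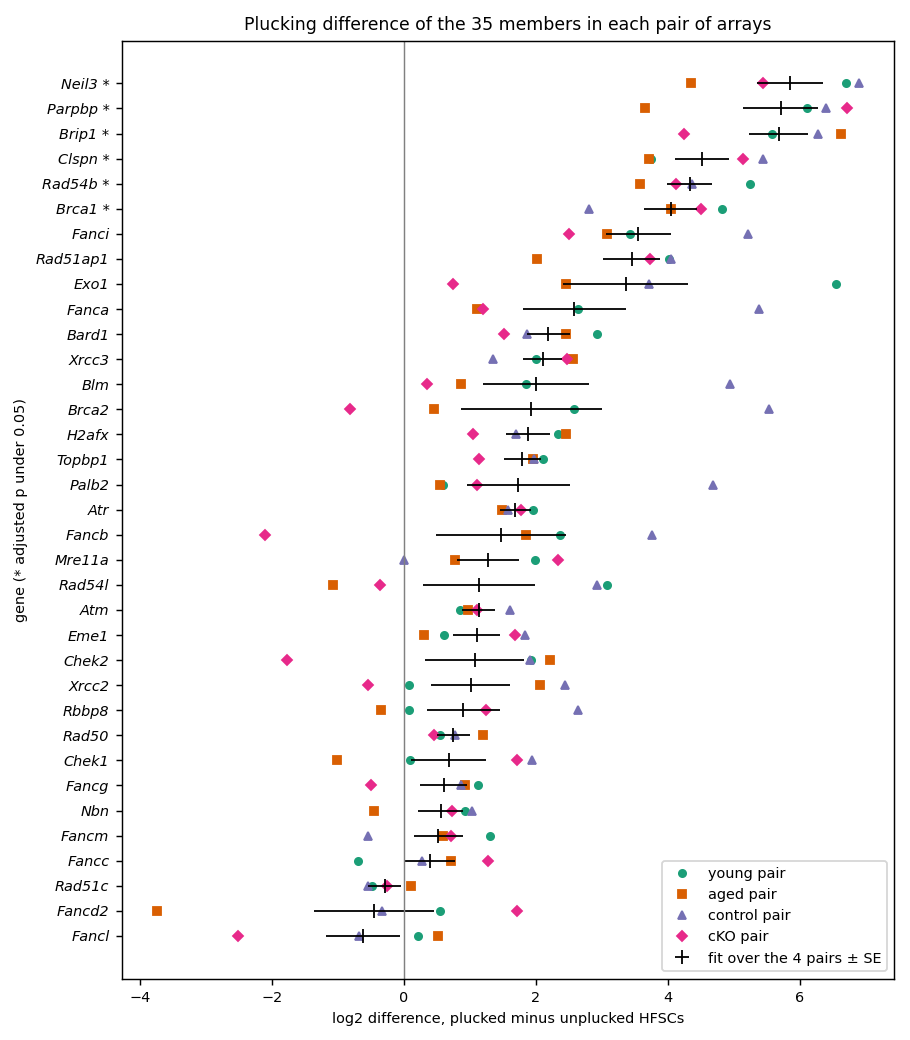
Log2 difference between plucked and unplucked HFSCs for each of the 35 genes in the young, aged, control and cKO pair (coloured symbols, 1 array against 1 array), with the fit over the 4 pairs and its SE in black and an asterisk for adjusted p under 0.05. The 6 genes with an asterisk have all 4 symbols at 2.81 or higher, whereas Brca2, Fancb and Chek2 have the cKO symbol below 0.

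Single pairs have no test, so genes were counted where they differed by at least 2-fold and the brighter array was well above background. In the young pair 23 of 34 measured genes were at least 2-fold higher after plucking and 0 lower, against 14.9% and 11% of all genes. In the aged pair 18 were higher and 3 lower (Rad54l, Chek1 and Fancd2), against 15.6% and 16.8%. The control pair had 27 of 35 higher and 0 lower, against 21% and 20.2%, and the cKO pair 22 of 34 higher and 3 lower (Fancb, Fancl and Chek2), against 22.2% and 17.1%. The medians were 1.99, 1.15, 1.97 and 1.23 in the young, aged, control and cKO pair. Without the control pair the fitted median of the 35 was 0.97.

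A test of the difference between pairs called none. The plucking response of aged HFSCs minus that of the other 3 gave 0 of 35 genes past the threshold (limma interaction, 2 residual degrees of freedom; of all genes 0% were higher and 0% lower, and 3 of the 35 and 1132 of all genes had an unadjusted p under 0.05). Among them Fancd2 was at -4.39 ± 1.00 and Parpbp at -2.75 ± 0.60, both with an adjusted p of 0.999. The response labelled cKO minus the other 3 also gave 0 (0% higher and 0% lower among all genes, 4 of the 35 and 2067 of all genes with an unadjusted p under 0.05). Chek2 was at -3.80 ± 0.58 (adjusted p = 0.456) and Fancb at -4.76 ± 0.95 (adjusted p = 0.458). With a trended variance limma called 0 in both.

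The neighbouring gene lists were read from the same fit. The 32 other homologous recombination genes had a median difference of 0.83, with 24 above 0. Other Fanconi genes (10 of 12 with a probe) had a median of 0.35, other checkpoint genes (22) of 0.90, end joining genes (9) of 0.77 and excision and mismatch repair genes (37) of 0.42, with 0 called in each of these 4 lists. Their fitted differences were above 0 for 6 of 10, 20 of 22, 9 of 9 and 26 of 37 genes. All 20 DNA replication genes were above 0 with a median of 2.26 and 0 called. All 16 mitosis genes were above 0 with a median of 3.88, and 3 of them rose: Mki67 (3.81 ± 0.40), Bub1 (5.46 ± 0.57) and Tpx2 (5.78 ± 0.62), each with an adjusted p of 0.0448. The summed linear level of the mitosis list was 5.42 to 23.2 in unplucked and 89.9 to 160 in plucked HFSCs, and its part in the differences of the 35 genes was not tested.

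Markers of other cells were read on the same arrays. The summed linear level of the 6 fibroblast markers was 4.27 to 9.17 in unplucked and 2.07 to 2.47 in plucked HFSCs. For the 5 melanocyte markers it was 3.49 to 6.16 and 1.24 to 2.15, and for the 4 T cell markers with a probe 0.669 to 1.14 and 0.647 to 0.956. The 5 Langerhans and myeloid markers summed to 0.759 to 1.57 and 0.654 to 2.58, the 4 endothelial markers to 2.73 to 6.72 and 2.34 to 3.08, and the 8 bulge markers to 299 to 472 and 224 to 311. The 5 IFE markers summed to 31.5 to 60.6 and 45.3 to 62.2, and the 5 hair germ markers to 24.6 to 47.8 and 18 to 35.7. In the plucking fit, Mitf, a melanocyte regulator, was the 1 called among these lists (-2.84 ± 0.23, adjusted p = 0.0439). It made up most of the unplucked melanocyte sum, whereas of the 4 melanocyte genes tested 3 were above 0 and 1 below. Col1a2 made up most of the unplucked fibroblast sum, and of the 4 fibroblast genes tested 2 were above 0 and 2 below. A sum thus follows its brightest probes and not the list as a whole. The part of these markers in the differences of the 35 genes was not tested.

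Unplucked HFSCs were next set against total epidermis and IFE in young and aged mice, to ask where the genes stand before plucking. Of 33 genes tested, 2 were lower in HFSCs and 0 higher (limma, 6 arrays, age as a term, adjusted p under 0.05 over 23904 genes), against 3.51% lower and 3.66% higher among all genes, a share of members close to that of all genes. Brca1 and Fancd2 were not well above background on enough arrays to be tested. The difference was below 0 for 25 of 33, with a median of -0.46 against -0.08 for all genes.

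Brip1 was at -3.03 and -4.45 in young and aged HFSCs, at -1.28 and -0.46 in total epidermis and at -0.38 and 0.31 in IFE. The HFSC arrays were the lowest, with a difference of -3.29 ± 0.55 (9.76-fold, adjusted p = 0.0408). Of the 2 HFSC arrays only the young one was well above background, so the fold is not exact. Over 10 alternatives the difference of Brip1 ranged from -3.71 to -1.51. Parpbp was at -4.79 and -3.90 in HFSCs, neither well above background, at -3.60 and -2.38 in total epidermis and at -2.37 and -1.78 in IFE (-1.81 ± 0.26, at least 2.28-fold lower, adjusted p = 0.0292). Both calls were lost without total epidermis (adjusted p = 0.0656 for Brip1 and 0.051 for Parpbp) and without IFE (0.0751 and 0.167). Rad54b and Neil3 were the 2 genes called without IFE. Parpbp was also not called after normexp correction (-0.41, adjusted p = 0.163) or with a trended variance (adjusted p = 0.0553), and Brip1 not after scaling to the median (adjusted p = 0.0548). With every gene tested neither passed (adjusted p = 0.0636 and 0.0627).

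The 2 HFSC arrays lay below all 4 epidermal arrays for 12 genes, against 18.4% of all genes: Brip1, Xrcc3, Rad54b, Rbbp8, Exo1, Fancb, Fancg, Fanci, Atm, Topbp1, Clspn and Parpbp. They lay above for 3, Palb2, Rad51c and Eme1, against 16.2%. For Rad51c, whose probe may not report the gene, this was 9.11 and 9.12 against at most 9.10. Xrcc3 was at least 3.05-fold lower in HFSCs (adjusted p = 0.0876). Rad54b (adjusted p = 0.0715) was not well above background on the HFSC arrays or on young IFE, so no fold is given. Among the other lists, the checkpoint genes Dtl (-2.09 ± 0.28, adjusted p = 0.0256) and Wee1 (-1.52 ± 0.24, adjusted p = 0.0363), the replication gene Gins1 (-2.06 ± 0.26, adjusted p = 0.0221) and the mitosis genes Aurka (-2.01 ± 0.29, adjusted p = 0.0285) and Cdk1 (-1.53 ± 0.23, adjusted p = 0.0328) were lower in HFSCs. The T cell markers Cd3e and Cd3g were also lower in HFSCs, but against total epidermis and not IFE. Cd3e was at -1.32 (young) and -0.48 (aged) in HFSCs and at -1.22 and -0.52 in IFE. Total epidermis had 1.66 and 2.25. Cd3g was not well above background on the HFSC and IFE arrays compared here. Of the 6 fibroblast markers, Col1a1 and Col1a2 were higher in HFSCs. Col3a1 was at -3.46 and -3.48 in HFSCs and between -4.66 and -3.02 in epidermis. Dcn, Lum and Pdgfra were not well above background on any array compared here. The part of these markers was not tested.

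Age was the next contrast. In HFSCs, aged against young over the unplucked and plucked pairs, 0 of 35 genes passed (limma, adjusted p from 0.931 to 0.999), and of all genes 0% were higher and 0% lower. At an unadjusted p under 0.05 there were 2 of the 35 and 1229 of all 25366. The median of the 35 was -0.15, against 0.03 for all genes. Scaling the arrays to their median moved both, to -0.41 and -0.23. With a trended variance, limma again called 0.

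The 5 largest differences with the same sign in both pairs were the following. Clspn differed by -1.55 in unplucked and -1.59 in plucked cells (-1.57 ± 0.58). It was not well above background on either unplucked array. Xrcc2 was at -2.57 and -0.58 (-1.57 ± 0.84, at least 1.43-fold lower). Rad51ap1 was at 2.39 and 0.38 (1.38 ± 0.61), Bard1 at 1.42 and 0.95 (1.18 ± 0.46) and Fancb at -0.75 and -1.27 (-1.01 ± 1.38). The adjusted p was 0.931 for the first 4 and 0.95 for Fancb. The other probes of Bard1 differed by 0.90 and -0.31.

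The unplucked and the plucked pair were counted separately, without a test. Unplucked, 5 of 29 measured genes were at least 2-fold higher in aged HFSCs (Bard1, Rad51ap1, Rad54l, Exo1 and Fancd2, against 18.5% of all genes) and 3 were lower (Brip1, Xrcc2 and Rad50, against 11.5%). Both unplucked shares were close to those of all genes, so these counts say nothing particular about the members. After plucking, 0 of 34 were at least 2-fold higher (9.88% of all genes) and 8 lower (10.1%), namely Brca2, Rad54l, Exo1, Fanca, Fancb, Clspn, Neil3 and Parpbp, by log2 differences between -1.73 and -1.06. The median of the measured genes was -0.47 there, against 0.03 for all genes measured, and 27 of 34 were below 0. For 5 of the 6 genes that rose on plucking the aged array was the lowest of the 4 plucked arrays. How often this order occurs among all genes was not counted, so the count says nothing particular about these genes. The mitosis list had a median level of 1.41 on the plucked aged array and of 1.96 to 2.26 on the other plucked arrays, and its part was not tested.

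In total epidermis and IFE, 0 of 34 genes tested passed between aged and young (limma over the 8 young and aged arrays, 2 residual degrees of freedom, every adjusted p 1, and 0% of all genes higher and 0% lower). At an unadjusted p under 0.05 there were 5 of the 34, all higher, and 851 of all 24761 genes. The median was 0.33, against 0.05 for all genes, with 22 of 34 above 0. In total epidermis 5 of 31 measured genes were at least 2-fold higher in aged cells (Blm, Fanca, Clspn, Neil3 and Parpbp, against 5.2% of all genes) and 1 lower (Bard1, against 6.89%). In IFE 9 of 32 were higher (Bard1, Xrcc2, Xrcc3, Rad54b, Fancc, Fancg, Fanci, Clspn and Neil3, against 8.57%) and 1 lower (Chek2, against 3.54%).

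Neil3 was at -3.14 in young and -1.82 in aged total epidermis and at -5.06 and -2.06 in IFE (2.16 ± 0.72). Clspn was at -3.45 and -1.35 in total epidermis and at -3.58 and -2.49 in IFE (1.60 ± 0.36). For both, each aged array lay above both young arrays, and the young IFE array was not well above background. How often this order of the arrays occurs among all genes was not counted, so it says nothing particular about these genes. Brca1 differed by 1.48 ± 0.34 but was not well above background on any of the 4 epidermal arrays, so this gives no fold. Xrcc2 differed by 1.23 ± 0.66, but among the 4 epidermal arrays it was well above background only on aged IFE, so this gives no fold. Its other probe, well above background on 1 array, differed by 0.11. Fanca differed by 1.11 ± 0.45. The 16 mitosis genes were all above 0 in the same contrast (median 1.00, 0 called), and their summed level was 7.73 and 11.1 in young and 19.1 and 21.2 in aged total epidermis and IFE. Its part was not tested.

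For 8 genes, Brca1, Brip1, Palb2, Xrcc2, Xrcc3, Rad50, Clspn and H2afx, aged cells were lower in both HFSC pairs and higher in both epidermal pairs, a pattern of 5.21% of all genes. The opposite pattern held for 1 gene, Rad51c, against 4.32%. Its differences were 0.01 and 0.60 in HFSCs and -0.08 and, after rounding, 0 in epidermis, on a probe that may not report the gene. Palb2, named above, differed by only -0.05 and -0.09 in HFSCs. Some of these signs rest on dim values: Brca1 was not well above background on any unplucked HFSC or epidermal array, and Xrcc2 was well above it on 4 of 12 arrays. Palb2, Xrcc2 and Rad50 also had another probe, well above background on 4, 1 and 12 arrays. Over both HFSC pairs it differed by 1.83, 1.33 and 0.55, against -0.07, -1.57 and -0.68 on the probe used. The HFSC signs of these genes thus depend on the probe. The age difference in epidermis minus that in HFSCs was tested in 1 fit, and 0 of 34 genes passed (0% of all genes higher and 0% lower, 8 of the 34 and 1325 of all genes with an unadjusted p under 0.05). Clspn had the largest value, 3.17 ± 0.51 (adjusted p = 0.817), followed by Xrcc2 at 2.80 ± 0.93 (adjusted p = 0.919) and Neil3 at 2.71 ± 1.02 (adjusted p = 0.928). The mitosis list had a median of 1.45 in this contrast, with 0 called.

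**Figure D4:**
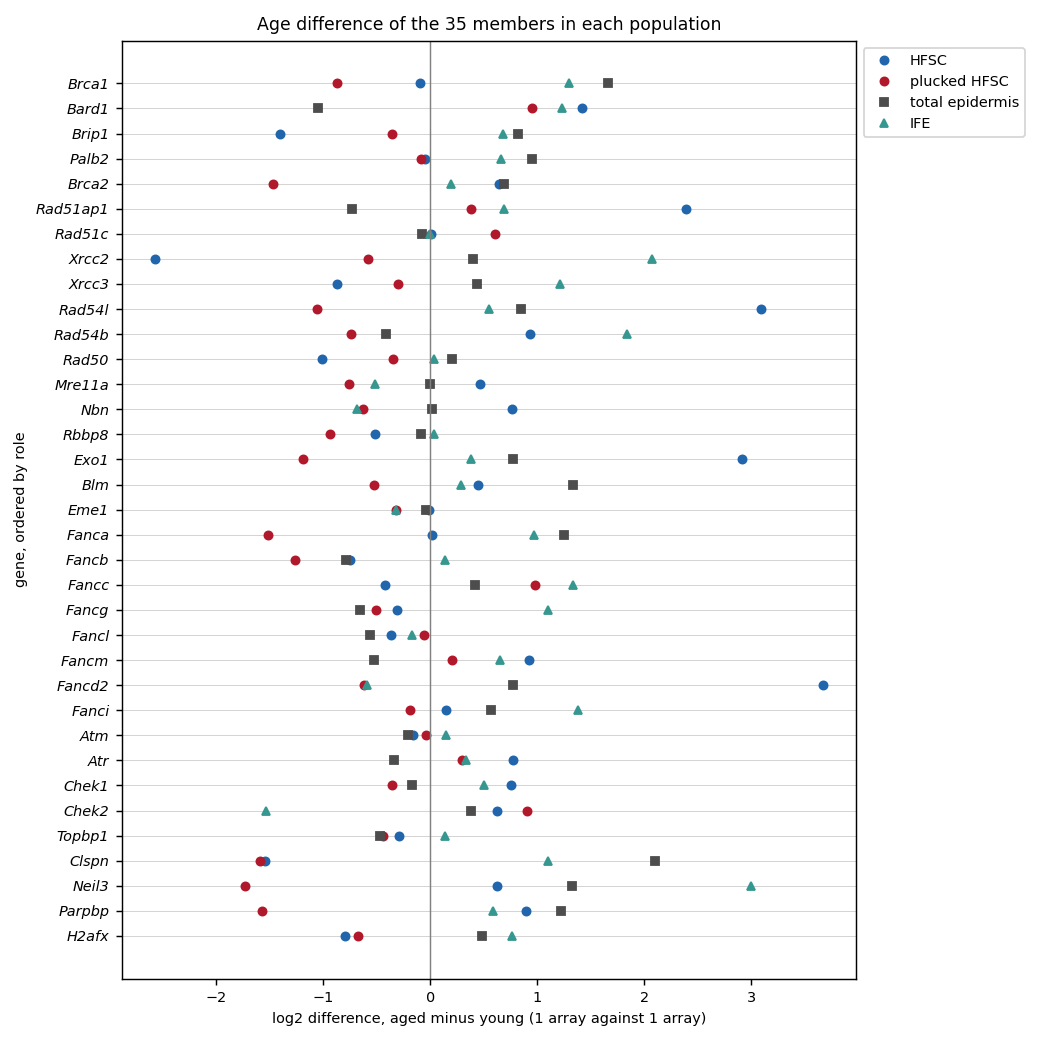
Log2 difference between aged and young cells for each of the 35 genes (rows, ordered by role) in HFSCs, plucked HFSCs, total epidermis and IFE, each 1 array against 1 array. The red points (plucked HFSCs) lie below 0 for 27 of the 34 genes measured there, and the IFE triangles lie above 0 for 26 of 32. Over all genes measured, the medians of these pairs were 0.03 and 0.09. Points of genes that were not well above background are drawn too.

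The last contrast set HFSCs labelled cKO against control HFSCs on slide 2. Over the unplucked and plucked pairs, 0 of 35 genes passed (limma, smallest adjusted p = 0.603), and 0% of all genes were higher and 0% lower. An unadjusted p under 0.05 was found for 4 of the 35 and for 1644 of all genes, and the trended fit again called 0. The 5 largest differences with the same sign in both pairs were Fancm (-2.37 ± 0.52, adjusted p = 0.617), Xrcc3 (-2.08 ± 0.43, adjusted p = 0.603), Fanci (1.85 ± 0.70, adjusted p = 0.76), Mre11a (-1.72 ± 0.66, adjusted p = 0.763) and Xrcc2 (-1.55 ± 0.84, adjusted p = 0.816).

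Fancm, the translocase of the Fanconi core, was at -0.74 and -1.27 in control and at -3.73 and -3.02 in cKO HFSCs, unplucked and plucked, and the unplucked cKO value was not well above background. Xrcc3 was at -2.63 and -1.28 in control and at -5.27 and -2.79 in cKO. For both genes the cKO arrays lay below the control arrays, and the unplucked cKO value of Xrcc3 was also not well above background. The share of all genes with this order of the arrays was not counted. Unplucked, 9 of 26 measured genes were at least 2-fold higher in cKO cells (Brip1, Brca2, Rad54l, Rbbp8, Exo1, Blm, Fancb, Fancg and Fanci, against 17.6% of all genes) and 4 lower (Xrcc3, Mre11a, Fancm and Fancd2, against 20.8%). Plucked, 1 of 35 was higher (Fancc, against 11.5%) and 8 lower (Xrcc2, Xrcc3, Exo1, Blm, Fanca, Fancl, Fancm and Chek2, against 12%). The largest unplucked differences, 6.15 for Brca2 and 5.14 for Fancb, set a bright cKO value (-0.17 and 1.32) against a control value not well above background (-6.32 and -3.83).

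For Brca2 and Fancb the plucked cells differed by -0.21 and -0.72. These 2 unplucked arrays had the lowest correlations with the rest, and the mitosis list had a median level of -1.75 in unplucked control and of -0.80 in unplucked cKO cells. The part of these values in the differences was not tested.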

How the data were processed

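The 12 samples were hybridised to 1 one-colour (Cy3) array each. Per the labels' protocols, nanogram amounts of RNA (RNeasy micro) were amplified by Ovation Pico WTA and given Cy3 with SureTag reagents. The intensity values deposited by the authors are linear spot signals, and per the file headers Feature Extraction 10.7.3.1 from Agilent (protocol GE1_107_Sep09) produced them with background subtracted. The log2 values deposited by the authors for 55821 probes followed the scanner-derived values after centring each probe and served as an alternative. How they were made is not given in the sources used here.

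Control spots and the 129 to 269 spots of each array marked as outliers were dropped. Saturation was absent. The 55681 probes carried 34650 gene names, and 11265 names had more than 1 probe. Probe coordinates are those of the files (mm9). limma 3.58.1 under R 4.3.3 gave the tests (lmFit, eBayes, Benjamini-Hochberg) with version 1.17.8 of data.table, on genes of which 2 or more arrays in a fit were well above background. The fits were also run on simulated data, where the check was that planted changes were recovered on average. That check does not give the error rates on these arrays. Motifs and figures used Python 3.11.15, pandas and matplotlib. With 1 array per group, the spread came from matched pairs in additive fits with 2 or 3 residual degrees of freedom. Array number limits the precision. Alternatives changed the background correction, scaling, filter, probe rule, gene unit, moderation and arrays used.

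The genes and the lists were chosen with earlier results of these data known. All 35 genes are named, with full statistics for those past the threshold or, where none passed, for the 5 largest differences with the same sign in every pair. Of the other lists, up to 3 called genes each are named, except that 1 result is not reported here.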

Additional observations from a re-analysis of the deposited data

How the results depend on the processing

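For plucking in HFSCs, 6 of the 35 genes were called. The count was 13 with normexp and quantile scaling, 12 with a trended variance, 10 with a stricter filter on arrays well above background and 2 with every gene tested. Over all genes these settings called 725, 595, 205 and 18 higher and 398, 285, 93 and 4 lower, against 100 and 27, so the count of all genes moved with that of the 35. It was 0 to 0 when 1 pair was left out, 0 on slide 1 alone, 0 on slide 2 alone and 0 without the unplucked control and cKO arrays, and in each of these fits 0 of all genes were called. Leaving out arrays also leaves fewer degrees of freedom. The same 6 were among those called with the authors' table (6), median scaling (7), the mean of all probes (8) and RefSeq symbols (6). Over 15 alternatives, the differences of the 6 kept their sign, from 1.23 (Brca1, normexp) to 6.55 (Parpbp, slide 2 alone). The median difference of the 35, 1.69, was 0.79 with normexp and ranged from 0.97 to 1.97 when 1 pair was left out.

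For unplucked HFSCs against epidermis, 2 genes were called. The count was 1 with median scaling, 0 with every gene tested, 4 with the stricter filter, 5 with a trended variance and 0 to 2 when total epidermis or IFE was left out. The cause of these shifts was not tested. In the contrasts of age, cKO and the 3 differences of differences, 0 of the 35 genes were called in the main analysis and under every alternative run. The fits already take the matched arrays as pairs, so no separate blocked fit was made. Signal over background limits the dim genes to bounds: as few as 49.71% of spots passed on an array.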
